A study of Mus musculus with 18 samples.

Results

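The 10 genes described here are Cyp2c23, Cyp2c29, Cyp2c37, Cyp2c38, Cyp2c39, Cyp2c50, Cyp2c54, Cyp2c68, Cyp2c69 and Cyp2c70, which belong to the Cyp2c subfamily of cytochrome P450 enzymes. They were chosen by name, with earlier results on the same livers known, as 10 of the 16245 genes in a table of liver RNA sequencing counts. The table holds 4 other Cyp2c rows (Cyp2c40, Cyp2c55, Cyp2c67 and the pseudogene Cyp2c53-ps). The livers came from 18 wild-type male C57BL/6 mice (C57BL/6J in the methods of the study) that were kept from 8 weeks of age at about 29 °C on a NASH diet, which brings on steatohepatitis, an inflamed and fibrotic fatty liver. Mice were moved to single cages when they were randomized, before treatment began. The 3 groups held 6 mice each. Vehicle-treated mice received injections without the agent, GDF15-treated mice received a subcutaneous injection of recombinant GDF15, a stress cytokine that lowers food intake, once a day, and pair-fed mice were given the amount of food that GDF15-treated mice ate. The protocol lists 3 doses, from 0.3 nmol per kg up to 5 nmol per kg, and the dose that these livers received is not stated in the sample labels.

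Cytochrome P450 enzymes are haem proteins of the endoplasmic reticulum that insert an oxygen atom into drugs, steroids and fatty acids, using electrons passed on by the reductase Por. In mouse liver the Cyp2c enzymes turn arachidonic acid into epoxides and hydroxy acids and clear many drugs, and Cyp2c70 makes the muricholic acids that set rodent bile apart from human bile. Several Cyp2c genes respond to the xenobiotic receptor CAR (Nr1i3), depend on the hepatocyte factor HNF4A, and follow the pattern of growth hormone release, which differs between the sexes.

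On chromosome 19 of the mouse genome (build GRCm38), 9 of the 10 genes lie in a cluster that spans 39007019 to 40187333, or 1.18 Mb. No protein-coding gene of another family lies inside it. Cyp2c23 stands 3.82 Mb away, at 44005022 to 44029208. Within the cluster the order is Cyp2c29, Cyp2c38, Cyp2c39, Cyp2c68, Cyp2c69, Cyp2c37, Cyp2c54, Cyp2c50 and Cyp2c70, with genes on both strands. Coding sequences of the 45 pairs were 62.0% to 96.5% identical, with a median of 76.8%. Cyp2c68 and Cyp2c69 were the most alike pair (96.5%). Cyp2c37, Cyp2c50 and Cyp2c54 formed a set with 95.1% to 96.1% identity, and Cyp2c38 and Cyp2c39 a pair with 94.2%. Cyp2c29 was next to that pair (89.5% with Cyp2c39 and 89.1% with Cyp2c38), whereas Cyp2c23 and Cyp2c70 stood apart from every other gene.

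Likeness matters for the counts, because Salmon divides a read that matches several transcripts between them. Of all 50-base windows of the transcript, the share found in no other Cyp2c gene was 100% for Cyp2c23 and Cyp2c70, 97.9% for Cyp2c29, 92.6% for Cyp2c38 and 88.0% for Cyp2c39. It was 74.3% for Cyp2c54, 69.9% for Cyp2c37 and 69.3% for Cyp2c50. Only 56.7% of windows of Cyp2c68 and 45.2% of those of Cyp2c69 were unique, since these genes share sequence with Cyp2c67 and Cyp2c40. The levels of the last 5 genes are therefore uncertain one by one, and sums over each set are given beside them.

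Promoter sequences from RefSeq (GRCm38.p6) matched 8 of the 10 genes. Cyp2c23 and Cyp2c54 had no entry. The sequences below show 150 bases before the start site of 6 genes, written 5′ to 3′ along the gene, chosen because they set promoters that are close in sequence side by side (Cyp2c29, Cyp2c38 and Cyp2c39, and Cyp2c37 and Cyp2c50), of which some hold the letters marked and some do not, beside Cyp2c70, which stands apart. Capitals mark CAAAGTC, letters at the core of sequences that HNF4A is known to bind.

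Cyp2c29 (chr19:39286935-39287084, plus strand): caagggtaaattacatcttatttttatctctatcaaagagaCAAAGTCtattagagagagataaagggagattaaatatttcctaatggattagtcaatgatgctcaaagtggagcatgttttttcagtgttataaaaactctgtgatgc
Cyp2c38 (chr19:39463076-39463225, minus strand): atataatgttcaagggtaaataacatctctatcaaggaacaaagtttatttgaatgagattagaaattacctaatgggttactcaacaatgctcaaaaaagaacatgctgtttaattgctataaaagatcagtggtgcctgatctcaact
Cyp2c39 (chr19:39510672-39510821, plus strand): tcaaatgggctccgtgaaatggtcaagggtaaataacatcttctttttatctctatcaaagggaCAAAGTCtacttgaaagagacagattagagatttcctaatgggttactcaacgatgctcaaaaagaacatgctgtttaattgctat
Cyp2c37 (chr19:39992274-39992423, plus strand): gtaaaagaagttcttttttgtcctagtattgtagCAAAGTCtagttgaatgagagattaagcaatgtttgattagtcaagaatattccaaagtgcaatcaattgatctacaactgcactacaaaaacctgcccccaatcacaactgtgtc
Cyp2c50 (chr19:40089529-40089678, plus strand): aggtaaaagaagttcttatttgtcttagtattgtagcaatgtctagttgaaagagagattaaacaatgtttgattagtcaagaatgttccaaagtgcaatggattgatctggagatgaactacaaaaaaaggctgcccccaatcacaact
Cyp2c70 (chr19:40187287-40187436, minus strand): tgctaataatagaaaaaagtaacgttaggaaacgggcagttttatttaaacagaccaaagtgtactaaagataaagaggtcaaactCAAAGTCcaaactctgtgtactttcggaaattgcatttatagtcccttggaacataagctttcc

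Over the 250 bases before the start, CAAAGTC was present on either strand in 6 of the 8 promoters (Cyp2c29, Cyp2c37, Cyp2c39, Cyp2c68, Cyp2c69 and Cyp2c70) and in 3.84% of 32851 mouse promoters. The search for these letters was added after the sequences had been seen. It was not found in Cyp2c38 or Cyp2c50, which are close in sequence to promoters that hold it. Cyp2c37 and Cyp2c50 were identical at 90.8% of 228 aligned bases, Cyp2c38 and Cyp2c39 at 89.6% of 221, and Cyp2c29 and Cyp2c38 at 82.0% of 228. The nuclear receptor site AGGTCA was in 2 of the 8 (Cyp2c29 and Cyp2c70) and in 14.02% of all promoters. Direct repeats of that site spaced by 1 or by 4 bases were in 0 of the 8, and in only 0.0335% and 0.0152% of all promoters. At such shares, 0 of 8 says little about these promoters. The STAT5 palindrome TTCNNNGAA was also in 0 of the 8, beside 7.02% of all promoters, a share at which 0 of 8 again says little.

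Libraries held 16508864 to 35301853 counts, and 3 pair-fed libraries (replicates 4, 5 and 6) were larger than all others of that group. Levels below are normalized counts, which are counts divided by the size factor of the library. In bulk liver, a change in the number of hepatocytes and a change in RNA per hepatocyte cannot be told apart. The labelled tissue was checked against 6 hepatocyte markers, of which 5 were in the table (Tf was not), and their summed level was 1413840 to 1812121 with vehicle, 1997193 to 2352176 with GDF15 and 1276506 to 2002296 in pair-fed livers. None of the 5 kidney tubule markers was in the table.

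The 10 genes together were higher with GDF15 than in either control group. Their summed normalized count was 66414 ± 5223 (SD, n = 6) in GDF15 livers, 25234 ± 6595 in vehicle livers and 28661 ± 7163 in pair-fed livers, so that the means stood 2.63 times above vehicle and 2.32 times above pair-fed. The lowest GDF15 liver had 58435 and the highest of the other 12 livers had 35344, so the groups did not overlap. The genes took 0.299% ± 0.0181 of the library in GDF15 livers, 0.127% ± 0.0273 in vehicle livers and 0.144% ± 0.0322 in pair-fed livers. Spread between mice was lowest with GDF15, at 7.86% of the mean against 26.1% with vehicle and 25.0% with pair-feeding.

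**Figure D1:**
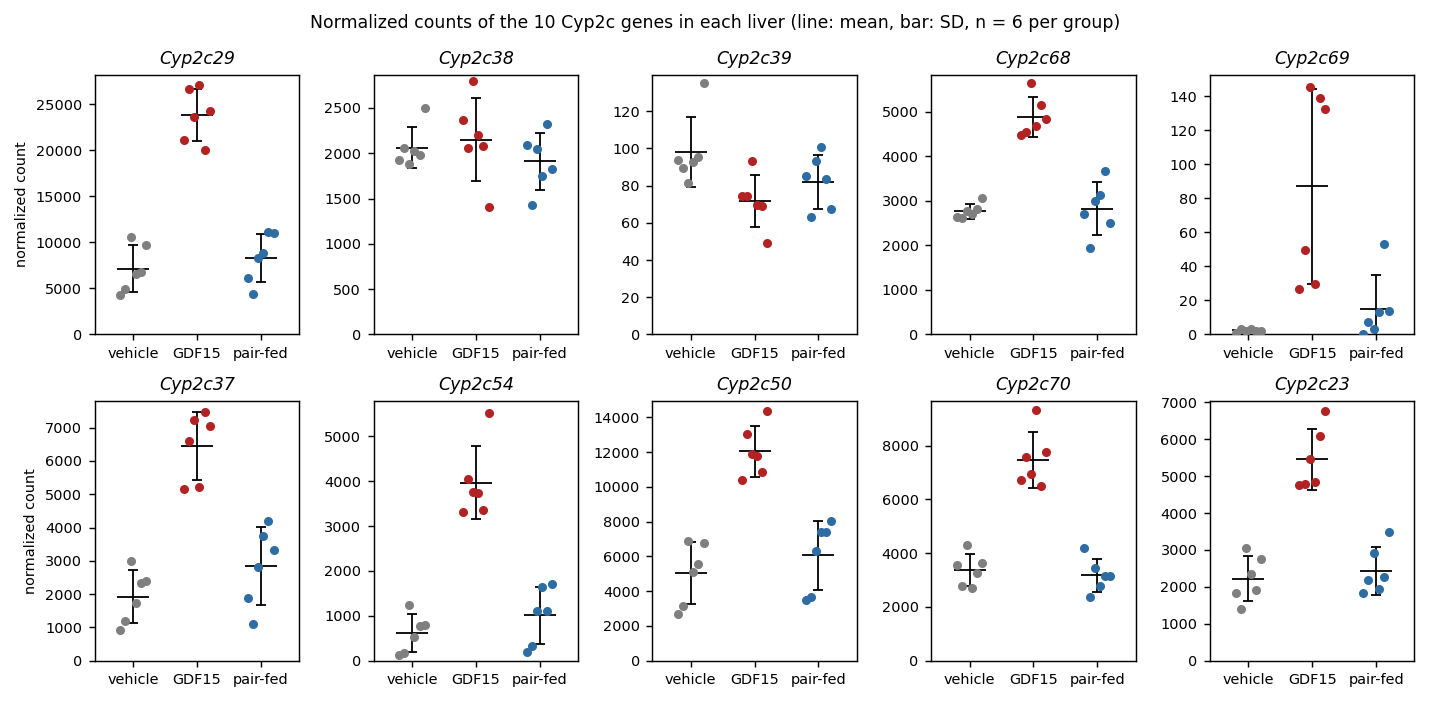
Normalized count (y axis, linear from 0, a separate scale for each gene) of the 10 Cyp2c genes in each of the 18 livers, in chromosomal order with Cyp2c23 last. Points are livers, lines are group means and bars are SD (n = 6 per group). The GDF15 livers lie above all vehicle livers for 8 of the 10 genes, and Cyp2c38 and Cyp2c39 are the exceptions.

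Cyp2c29, an arachidonic acid epoxygenase, was the most abundant of the 10 in every group. Its normalized count was 20072 at the lowest, 23960 at the median and 27107 at the highest with GDF15. In vehicle livers it was 4254 at the lowest, 6666 at the median and 10577 at the highest, and in pair-fed livers 4445, 8590 and 11103. Every GDF15 liver was thus above every other liver. The difference was 1.74 ± 0.22 (log2 fold change ± SE) from vehicle and 1.52 ± 0.22 from pair-fed, whereas pair-fed stood 0.22 ± 0.22 from vehicle.

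Cyp2c37, Cyp2c50 and Cyp2c54 are neighbours on the chromosome and also metabolize arachidonic acid. Cyp2c54 varied most of the 3 relative to its mean (SD of 69.5% of the mean with vehicle), with 126 at the lowest, 655 at the median and 1239 at the highest vehicle liver. With GDF15 it was 3314, 3754 and 5518, and with pair-feeding 195, 1107 and 1704. The groups did not overlap with GDF15, and in both control groups replicates 1 and 2 were far below the other 4 livers. Its log2 difference was 2.70 ± 0.54 from vehicle and 1.97 ± 0.54 from pair-fed.

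Cyp2c37 had 918 at the lowest, 2031 at the median and 2997 at the highest vehicle liver. With GDF15 these values were 5152, 6832 and 7463, and with pair-feeding 1090, 3065 and 4187. The GDF15 livers again lay above all others. The log2 difference was 1.74 ± 0.31 from vehicle and 1.18 ± 0.31 from pair-fed. Cyp2c50, the second most abundant gene, had 2703, 5347 and 6886 with vehicle, 10377, 11844 and 14370 with GDF15 and 3470, 6878 and 8030 with pair-feeding. It also did not overlap, but its difference was the smallest of the set, at 1.26 ± 0.23 from vehicle and 0.99 ± 0.23 from pair-fed. Summed over the 3 genes, so that reads divided among them do not matter, the mean was 22465 ± 2771 in GDF15 livers, 7571 ± 2958 in vehicle livers and 9909 ± 3702 in pair-fed livers. The summed level was 2.97 times that of vehicle and 2.27 times that of pair-fed.

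Cyp2c23, the epoxygenase outside the cluster, and Cyp2c70, the muricholic acid enzyme, can be read without this doubt because all their windows are unique. Cyp2c23 had 1398 at the lowest, 2136 at the median and 3041 at the highest vehicle liver. With GDF15 it had 4758, 5155 and 6771, and with pair-feeding 1822, 2224 and 3494. It was higher in every GDF15 liver, by 1.30 ± 0.18 from vehicle and 1.16 ± 0.18 from pair-fed on the log2 scale.

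Cyp2c70 had 2691, 3417 and 4320 with vehicle, 6499, 7263 and 9322 with GDF15 and 2384, 3152 and 4206 with pair-feeding. All GDF15 livers were above all others. The log2 difference was 1.15 ± 0.13 from vehicle and 1.23 ± 0.13 from pair-fed. It was the only member called in both whose difference was larger from pair-fed than from vehicle, and the gap is smaller than either SE.

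Cyp2c68 showed a smaller difference. Its count was 2606 at the lowest, 2739 at the median and 3072 at the highest vehicle liver. With GDF15 it was 4470, 4751 and 5647, and with pair-feeding 1934, 2850 and 3671. The groups did not overlap, and the log2 difference was 0.82 ± 0.11 from vehicle and 0.79 ± 0.11 from pair-fed. Cyp2c67, the near copy that was not among the 10, was at a similar difference, 0.67 ± 0.09 from vehicle (DESeq2 adjusted p = 1.67e-12) and 0.64 ± 0.09 from pair-fed (DESeq2 adjusted p = 3.06e-11). Summed over Cyp2c40, Cyp2c67, Cyp2c68 and Cyp2c69, which share sequence, the mean was 10374 ± 924 in GDF15 livers, 6153 ± 392 in vehicle livers and 6299 ± 660 in pair-fed livers.

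Cyp2c69, known to be higher in female than in male liver, was the rarest of the 10 in vehicle and pair-fed livers. Vehicle libraries held 1 to 4 estimated counts of it, GDF15 libraries 23 to 142 and pair-fed libraries 0 to 71. Over the group, 461 counts in GDF15 libraries stood against 14 in vehicle libraries, a ratio of 31.7 per library total with a 95% counting interval of 18.7 to 58.5 (exact Clopper-Pearson). That interval treats estimated counts as if they were reads. It leaves out the spread between mice and the division of reads between near copies. The fitted log2 difference was 5.21 ± 0.82 from vehicle and 2.50 ± 0.73 from pair-fed, and 2.71 ± 0.83 between pair-fed and vehicle. Normalized counts were 26.9 to 145 with GDF15 and 0 to 53.5 with pair-feeding, so these groups overlapped, and only 3 of the 6 GDF15 livers were above every pair-fed liver. Without pair-fed replicate 5, the difference of GDF15 from pair-fed was 3.47 and that of pair-fed from vehicle 1.74. With 45.2% of its windows unique, part of this signal may be shared with its near copies, and that part was not tested.

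Cyp2c38 and Cyp2c39, the pair between Cyp2c29 and Cyp2c68, were the exceptions. Cyp2c38, an epoxygenase, had 1878 at the lowest, 2003 at the median and 2499 at the highest vehicle liver. With GDF15 it had 1407, 2139 and 2799, and with pair-feeding 1426, 1937 and 2320. The groups overlapped throughout, with a log2 difference of 0.06 ± 0.14 from vehicle and 0.17 ± 0.14 from pair-fed. Cyp2c39, which is also known to hydroxylate retinoic acid, had 81.5, 93.2 and 135 with vehicle, 49.4, 71.9 and 93.2 with GDF15 and 62.9, 84.4 and 101 with pair-feeding. Its log2 difference was -0.44 ± 0.16 from vehicle, with 5 of the 6 GDF15 livers below every vehicle liver, and -0.19 ± 0.16 from pair-fed. The pair summed to 2223 ± 468 in GDF15 livers, 2158 ± 242 in vehicle livers and 1992 ± 319 in pair-fed livers, and these sums overlapped.

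**Figure D2:**
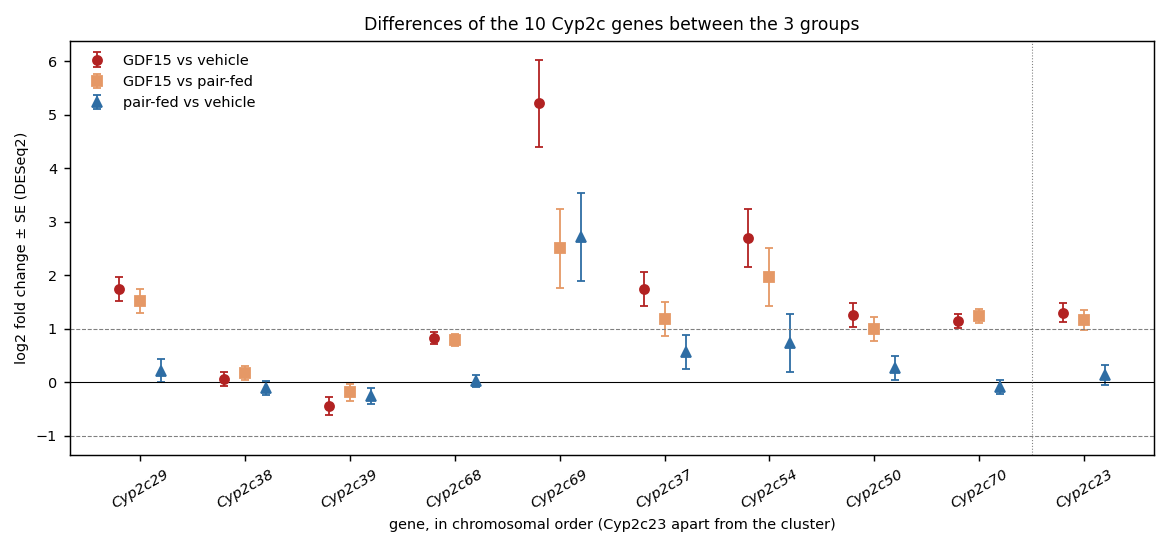
Log2 fold change ± SE from DESeq2 (y axis) of each of the 10 genes (x axis, chromosomal order, Cyp2c23 apart) for GDF15 against vehicle (circles), GDF15 against pair-fed (squares) and pair-fed against vehicle (triangles). Dashed lines mark a log2 fold change of 1 in either direction. The values against vehicle run from -0.44 for Cyp2c39 to 5.21 for Cyp2c69.

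A gene was called different when it passed both an adjusted p of 0.05 in DESeq2 and a log2 fold change of 1 in size. Against vehicle, 7 of the 10 genes were called higher and 0 lower, where 0.9% of 14667 genes tested were called higher, 5.37% lower and 6.27% in either direction. On adjusted p alone 9 passed, 8 higher and 1 lower (Cyp2c39), beside 33.3% of all genes. Against pair-fed, 6 were called higher (the same genes except Cyp2c50) and 0 lower, where 0.627% of 14353 genes were called higher, 2.75% lower and 3.37% in either direction. On adjusted p alone 8 passed, all higher, beside 27.1% of all genes. Cyp2c50 was the member nearest below the fold threshold there (0.99), and Cyp2c70 the nearest above it against vehicle (1.15). Between pair-fed and vehicle, 0 of the 10 were called, and 0% of 16242 genes were called. The median log2 fold change of the 10 genes was 1.28, 1.17 and 0.18 in these comparisons, and that of all genes tested was 0.00241, -0.000775 and -0.00452. Groups did not overlap for 8 members against vehicle (5.75% of all genes had all 6 GDF15 livers above and 6.94% all below) and for 7 against pair-fed (4.86% above and 5.23% below), in each case with GDF15 higher. Between pair-fed and vehicle 0 members were apart, where 0.111% of genes were wholly above and 0.0985% wholly below. Because the genes were chosen with these values known, the counts are a description and no p is attached to them. Both GDF15 comparisons use the same 6 GDF15 livers.

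The make-up of the family differed between groups as well as its size. Cyp2c29 made up 35.8% ± 2.66 (SD, n = 6) of the counts of the 10 genes with GDF15, against 27.7% ± 2.86 in vehicle and 28.5% ± 2.41 in pair-fed livers, and its lowest share with GDF15 (32.5%) was above its highest with vehicle (31.3%). Cyp2c54 made up 5.93% ± 0.852 with GDF15 and 2.18% ± 1.17 with vehicle. Cyp2c38 went the other way, with 3.28% ± 0.802 of the counts with GDF15 against 8.58% ± 2.07 with vehicle, although its own level hardly differed. Cyp2c39 had 0.109% ± 0.0241 and 0.406% ± 0.0987. Shares with GDF15 lay wholly above those with vehicle for 3 genes (Cyp2c29, Cyp2c54 and Cyp2c69) and wholly below for 2 (Cyp2c38 and Cyp2c39). The other 5 overlapped. Cyp2c50 held 18.1% ± 1.03 with GDF15 and 19.5% ± 2.82 with vehicle, Cyp2c70 held 11.2% ± 1.19 and 13.9% ± 3.18, Cyp2c37 held 9.74% ± 1.56 and 7.40% ± 1.51, Cyp2c23 held 8.23% ± 1.20 and 8.81% ± 1.11, and Cyp2c68 held 7.39% ± 0.832 and 11.5% ± 2.50. Shares of pair-fed livers stood between these values or near vehicle, for example 3.27% ± 1.69 for Cyp2c54 and 6.92% ± 1.54 for Cyp2c38. Some were nearer the GDF15 value, with 9.53% ± 2.17 for Cyp2c37 and 11.7% ± 3.87 for Cyp2c70. Against pair-fed, shares with GDF15 lay wholly above for Cyp2c29 and Cyp2c54 and wholly below for Cyp2c38 and Cyp2c39. For Cyp2c69 they overlapped, at 0.0428% to 0.225% with GDF15 and 0% to 0.151% with pair-feeding.

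**Figure D3:**
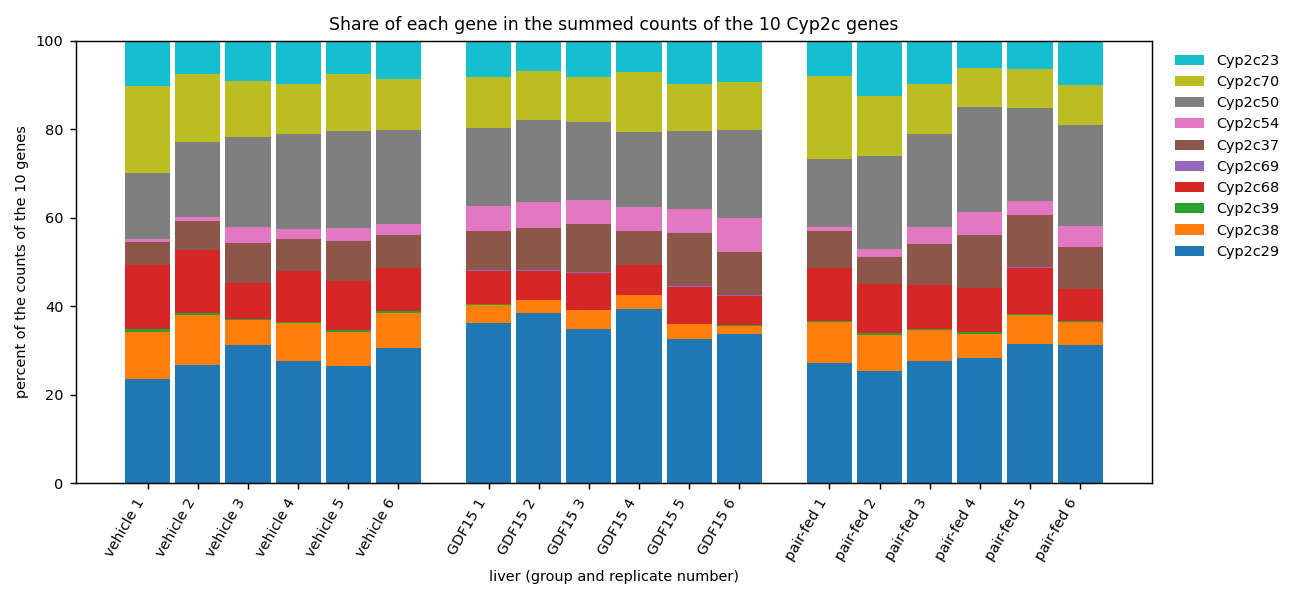
Percent of the summed counts of the 10 Cyp2c genes taken by each gene (y axis, 0 to 100) in each liver (x axis, group and replicate number). Each bar is 1 liver and each colour 1 gene, stacked in chromosomal order with Cyp2c23 on top. Cyp2c29 at the base is taller in the GDF15 livers (35.8% on average) than with vehicle (27.7%), and Cyp2c38 above it is thinner (3.28% against 8.58%).

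Compared per kilobase of transcript, the order of levels was Cyp2c29, Cyp2c50 and Cyp2c70 at the top in all 3 groups. Cyp2c29 had 13364 ± 1596 normalized counts per kilobase with GDF15 and Cyp2c50 had 6653 ± 804, and these ranges were apart. With vehicle they were 4004 ± 1426 and 2778 ± 981 and overlapped, although Cyp2c29 was above Cyp2c50 within each of the 6 livers. Below them the order changed. With vehicle, Cyp2c68, Cyp2c23, Cyp2c37, Cyp2c38 and Cyp2c54 followed, each overlapping the next, and with GDF15 Cyp2c37, Cyp2c23, Cyp2c68 and Cyp2c54 followed in overlapping ranges, all apart from Cyp2c38. Cyp2c54 thus stood below Cyp2c38 with vehicle (341 ± 237 against 718 ± 78.1 per kilobase, higher for Cyp2c38 in 5 of 6 livers) and above it in every GDF15 liver (2217 ± 455 against 750 ± 158). Cyp2c39 and Cyp2c69 came last in all groups.

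Livers of the same group also differed together. Correlations were computed over deviations of log2(normalized count + 1) from the group mean in 18 livers, as a description. The points share library, depth and, for near-identical genes, reads that Salmon divided. Over the 45 pairs, r ran from -0.47 (Cyp2c69 with Cyp2c70) to 0.98 (Cyp2c50 with Cyp2c54), with a median of 0.34, and 8 pairs were above 0.7. Cyp2c29, Cyp2c37, Cyp2c50 and Cyp2c54 made up 6 of those 8 pairs, with r from 0.87 to 0.98. The remaining 2 were Cyp2c38 with Cyp2c39 (0.80) and Cyp2c68 with Cyp2c37 (0.73). By ranks within groups, 4 pairs were above 0.7, and rho was 0.50 for Cyp2c29 with Cyp2c37 and 0.50 for Cyp2c38 with Cyp2c39. Without the 2 livers farthest from their group median in the first gene of a pair, 7 pairs were above 0.7, and Cyp2c68 with Cyp2c37 had r of 0.49. Likeness in sequence and in level did not go together throughout. Cyp2c29 was 82.2% to 83.0% identical to Cyp2c37, Cyp2c50 and Cyp2c54 and 89.1% and 89.5% identical to Cyp2c38 and Cyp2c39, yet r was 0.87 to 0.93 with the first 3 and 0.30 and 0.23 with the last 2. Cyp2c68 and Cyp2c69, the most alike pair, had r of 0.42. By group, r of this pair was 0.06 with vehicle, 0.36 with pair-feeding and 0.81 with GDF15. Vehicle libraries held only 1 to 4 counts of Cyp2c69, and the part of counting error in its r was not tested.

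The groups differed in this pattern. Over 6 livers each, the median r of the 45 pairs was 0.42 with vehicle, 0.49 with pair-feeding and -0.03 with GDF15, where the family sum also varied least. Cyp2c29 with Cyp2c37 had r of 0.95 with vehicle, 0.96 with pair-feeding and -0.23 with GDF15. Cyp2c50 with Cyp2c54 stayed at 0.99, 0.98 and 0.95. Within the GDF15 livers Cyp2c69 followed Cyp2c37 (0.95), Cyp2c23 (0.84) and Cyp2c68 (0.81), Cyp2c29 followed Cyp2c70 (0.85), and Cyp2c38 ran against Cyp2c54 (-0.80). Whether these r values differ between groups was not tested. As shares of the family sum, which must add up to 100%, the median r over 18 livers was -0.09.

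**Figure D4:**
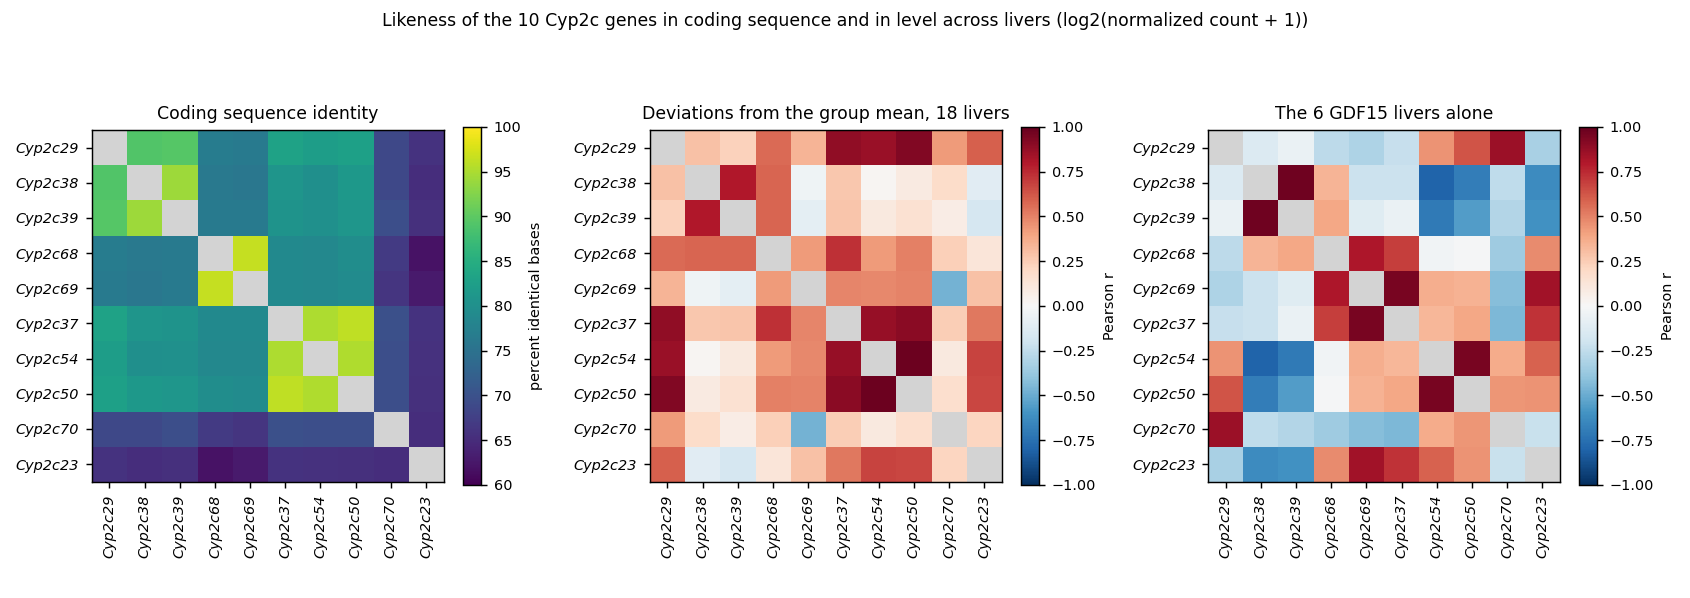
Percent identity of coding sequences (left) and Pearson r of log2(normalized count + 1) between the 10 genes over deviations from the group mean in 18 livers (middle) and over the 6 GDF15 livers alone (right). Each square is 1 pair of genes in chromosomal order, and grey squares are a gene with itself. The dark block in the middle joins Cyp2c37, Cyp2c54 and Cyp2c50 with each other and with Cyp2c29 (r from 0.87 to 0.98), and part of it is absent with GDF15 (Cyp2c29 with Cyp2c37, -0.23).

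Control livers differed more among themselves in the family sum than GDF15 livers did. In pair-fed livers, replicates 1 to 3, which had the smaller libraries, averaged 6298 ± 1953 (SD, n = 3) normalized counts of Cyp2c29 and replicates 4 to 6 averaged 10312 ± 1274. For Cyp2c54 these means were 544 ± 494 and 1482 ± 329. The split was made after the data were seen, and genes differed in it. Cyp2c37 (1932 ± 863 and 3749 ± 435) and Cyp2c50 (4489 ± 1605 and 7623 ± 353) were also higher in replicates 4 to 6. Cyp2c38 (1854 ± 372 and 1965 ± 311) and Cyp2c23 (2309 ± 556 and 2562 ± 824) differed little, and Cyp2c70 was lower (3341 ± 915 and 3026 ± 218). GDF15 livers held 23829 ± 2773 and 23827 ± 3541 of Cyp2c29 in the same replicates. With replicates 1 to 3 of each group alone, GDF15 differed from pair-fed by 1.92 ± 0.43 for Cyp2c29 and 2.77 ± 0.99 for Cyp2c54 on the log2 scale, and with replicates 4 to 6 by 1.21 ± 0.17 and 1.51 ± 0.22. The part of library size in this was not tested.

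Outside the Cyp2c family, the genes whose deviations over 18 livers were most like those of Cyp2c29, among 10872 genes with a mean of at least 50 normalized counts, were Slc27a5 (r = 0.93), which activates bile acids for conjugation, the glycine methyltransferase Gnmt (0.92) and Serpinf1 (0.91). For Cyp2c50 they were Slc27a5 (0.94), the sulfotransferase Sult2a8 (0.94) and Apeh (0.94). For Cyp2c37 they were Bbox1 (0.95), the last enzyme of carnitine synthesis, the glucocorticoid-activating enzyme Hsd11b1 (0.94) and Pipox (0.90). The values for Cyp2c70 were lower, with Akap17b (0.79), Zfp747 (0.75) and Ptch1 (0.74), and for Cyp2c69 they were Smim4 (0.83), Bloc1s2 (0.81) and Ssbp3 (0.80). Of these, Slc27a5 was 0.58 ± 0.11 higher with GDF15 than with vehicle on the log2 scale (DESeq2 adjusted p = 7.68e-07) and Sult2a8 was 1.58 ± 0.34 higher (DESeq2 adjusted p = 4.54e-05). Of the 14 genes named, 9 were higher and 0 lower than with vehicle by DESeq2 adjusted p without a fold threshold, beside 33.3% of all genes that passed in either direction. The 5 that did not pass included Bbox1 and all 3 genes most like Cyp2c69. Vehicle libraries held only 1 to 4 counts of Cyp2c69. The highest of 10872 r values over 18 livers can be large by chance, which was not tested.

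Genes that regulate or work with Cyp2c enzymes were taken from lists chosen with earlier results of these data known. Of 16 regulators, 0 were called in either direction in either GDF15 comparison by DESeq2, and 0 by edgeR. DESeq2 called 6.27% of all genes against vehicle and 3.37% against pair-fed, so 0 of 16 says little about this list. Without the fold threshold, 7 were higher with GDF15 than with vehicle and 5 than with pair-fed, beside 33.3% and 27.1% of all genes that passed in either direction, and their median log2 fold change was 0.34 and 0.24. The xenobiotic receptor CAR (Nr1i3) rose by 0.69 ± 0.27 from vehicle (DESeq2 adjusted p = 0.0329, under 0.05 in 12 of the 18 fits that left out 1 library and 0.0825 without GDF15 replicate 3) and differed by 0.60 ± 0.27 from pair-fed (DESeq2 adjusted p = 0.0755). Nr0b2, a repressor induced by bile acids, differed from vehicle by 0.62 ± 0.32 (DESeq2 adjusted p = 0.126). Hnf4a, named here after its values were seen because its motif was searched, rose by 0.54 ± 0.06 (DESeq2 adjusted p = 3.93e-15).

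Of 13 redox partners and haem enzymes, 0 were called by DESeq2 and 0 by edgeR. At shares of 6.27% of all genes called against vehicle and 3.37% against pair-fed, 0 of 13 says little. Without the fold threshold, 4 were higher and 1 lower than with vehicle, beside 33.3% of all genes in either direction. Por, which feeds electrons to every microsomal P450, rose by 0.99 ± 0.35 from vehicle (DESeq2 adjusted p = 0.0193). Its adjusted p was under 0.05 in 15 of the 18 fits that left out 1 library, and not without GDF15 replicate 2 (0.78, DESeq2 adjusted p = 0.0776), GDF15 replicate 3 (0.0621) or vehicle replicate 1 (0.0534), while 6 of the 18 fits put it past both thresholds. Its difference from pair-fed was 0.70 ± 0.35 (DESeq2 adjusted p = 0.129). Hmox1, which breaks down haem, fell by 0.64 from vehicle, with an SE of 0.21 (DESeq2 adjusted p = 0.00988, and 0.0600 without vehicle replicate 1). From pair-fed it differed by -0.22 ± 0.21 (DESeq2 adjusted p = 0.462).

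Of 17 genes of epoxide and arachidonic acid metabolism, 16 were tested. Against vehicle, 1 was called higher and 0 lower (0.9% and 5.37% of all genes). The one called was the fatty acid omega-hydroxylase Cyp4f14, which rose by 1.13 ± 0.17 (DESeq2 adjusted p = 1.01e-09) and by 0.90 ± 0.17 from pair-fed (DESeq2 adjusted p = 2.50e-06). Against pair-fed, 0 were called higher and 1 lower (0.627% and 2.75% of all genes). The 1 lower was the phospholipase Pla2g4a, named after its value was seen (-1.04 ± 0.30, DESeq2 adjusted p = 0.00316). It kept its call in 13 of the 18 fits that left out 1 library. It lay at -0.86 to -0.97 without GDF15 replicate 3 or 6 or pair-fed replicate 1, 2 or 3. Cyp4a14, also an omega-hydroxylase, rose by 0.71 ± 0.23 from vehicle (DESeq2 adjusted p = 0.00872) and differed by 0.53 ± 0.23 from pair-fed (DESeq2 adjusted p = 0.0699). Without the fold threshold, 5 genes of this list were higher and 3 lower than with vehicle, and 5 and 5 than with pair-fed. Of all genes, 33.3% and 27.1% passed in either direction. The epoxide hydrolase Ephx1, named after its values were seen, was lower (-0.60 from vehicle, DESeq2 adjusted p = 3.76e-07, and -0.49 from pair-fed, DESeq2 adjusted p = 6.73e-05). Of 8 bile acid enzymes, 1 was called higher against vehicle and 0 against pair-fed (0.9% and 0.627% of all genes). Cyp7b1, of the alternative route of bile acid synthesis, rose by 1.38 ± 0.28 from vehicle (DESeq2 adjusted p = 1.48e-05) and by 0.88 ± 0.28 from pair-fed (DESeq2 adjusted p = 0.0102). Cyp27a1, of the same route, rose by 0.76 ± 0.08 from vehicle (DESeq2 adjusted p = 1.01e-17).

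Among 23 other drug-metabolizing P450 genes, 22 were tested. Against vehicle, 3 were called higher and 0 lower (0.9% and 5.37% of all genes). Against pair-fed, 1 was called higher and 0 lower (0.627% and 2.75% of all genes). That 1 was Cyp2b10, the classic target of CAR, which rose by 2.62 ± 0.60 from vehicle (DESeq2 adjusted p = 0.000128) and by 2.94 ± 0.60 from pair-fed (DESeq2 adjusted p = 2.09e-05), at a low level of 110 ± 108 normalized counts with GDF15. Without GDF15 replicate 2 these differences were 1.92 and 2.23, without vehicle replicate 6 the first was 3.29, and all were still called. The median log2 fold change of this list was 0.24 from vehicle and 0.14 from pair-fed. Without the fold threshold, 8 were higher and 1 lower than with vehicle, and 7 and 0 than with pair-fed. Of all genes, 33.3% and 27.1% passed in either direction. The 1 lower was the abundant Cyp3a11, named after its value was seen (-0.42 ± 0.17, DESeq2 adjusted p = 0.0458). Its mean was 25789 ± 6532 normalized counts with GDF15 and 34548 ± 6001 with vehicle.

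Of 13 genes known to be higher in male liver, 7 were called higher and 0 lower than with vehicle (0.9% and 5.37% of all genes). Against pair-fed, 5 were called higher and 0 lower (0.627% and 2.75% of all genes). They included Hsd3b5, which rose by 5.28 ± 1.21 from vehicle (DESeq2 adjusted p = 0.000142), the organic anion transporter Slco1a1 (3.25 ± 0.82, DESeq2 adjusted p = 0.000568), Serpina1e (2.46 ± 0.67, DESeq2 adjusted p = 0.00174) and C8b (1.47 ± 0.20, DESeq2 adjusted p = 1.35e-11). The first 3 leaned on GDF15 replicate 6, which held 2361 normalized counts of Hsd3b5 against a median of 108 with GDF15, and 32031 of Serpina1e against 4326. Without that liver, Hsd3b5 was 3.44 from vehicle (DESeq2 adjusted p = 0.0134) and 2.63 from pair-fed in place of 4.47, where its call was lost (DESeq2 adjusted p = 0.0755). Serpina1e was then 1.26 from vehicle, where its call was lost (DESeq2 adjusted p = 0.0536), and 1.501 from pair-fed in place of 2.70 (DESeq2 adjusted p = 0.0213). Slco1a1 was 2.56 from vehicle and 1.49 from pair-fed in place of 2.19 (DESeq2 adjusted p = 0.175), and its call against pair-fed was kept in 12 of the 18 fits that left out 1 library, with losses also without GDF15 replicate 5 and pair-fed replicates 1, 2, 3 and 5. Without vehicle replicate 3, Hsd3b5 and Slco1a1 were 6.93 and 4.50 from vehicle, and without pair-fed replicate 6 Hsd3b5 was 5.42 from pair-fed. C8b kept both calls in all 18 fits. Of 14 genes known to be higher in female liver, 12 were tested, and 3 were called higher and 0 lower in each GDF15 comparison. A1bg was called in both (3.04 ± 0.42 from vehicle, DESeq2 adjusted p = 7.26e-11). Genes of both lists were thus among those called higher. Mup20, of the male list, differed in the opposite direction (-0.75 from vehicle, DESeq2 adjusted p = 0.00258) and is named because its sign was seen to differ.

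The flanks of the genes were read as well. Hells and Pdlim1, which border the cluster, were at -0.47 ± 0.25 and -0.04 ± 0.09 from vehicle (DESeq2 adjusted p = 0.140 and 0.799). Cpn1 and Erlin1, which border Cyp2c23, were at 0.27 ± 0.05 and -0.08 ± 0.06 (DESeq2 adjusted p = 1.82e-06 and 0.353). None of the 4 was called. Cyp2c55, at the first end of the cluster, was at -0.08 ± 0.19 from vehicle (DESeq2 adjusted p = 0.787), with 62.6 ± 15.0 normalized counts with GDF15. Cyp2c40 and Cyp2c53-ps held at most 5 and 7 estimated counts in any library.

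Marker levels of other cells and zones moved with the same groups. Summed levels of 8 pericentral markers were 144756 to 208294 with vehicle, 209592 to 300999 with GDF15 and 154060 to 240947 with pair-feeding, and those of 8 periportal markers were 130142 to 209368, 219765 to 286414 and 128100 to 174425. By DESeq2 adjusted p without a fold threshold, 4 of the 8 pericentral and 7 of the 8 periportal markers were higher than with vehicle, and the same numbers were higher than with pair-fed, beside 33.3% and 27.1% of all genes in either direction. Against vehicle, the mean sum was 1.35 times higher for hepatocyte markers, 1.41 times for pericentral and 1.65 times for periportal markers, beside 2.63 times for the 10 Cyp2c genes. All 7 stellate cell markers were lower, with a summed level of 4323 to 6448 against 8854 to 15268, and all 5 cholangiocyte markers were lower, with 1027 to 2087 against 2364 to 8622. Against pair-fed, all 7 stellate cell markers were also lower (7950 to 12375 with pair-feeding), but only 1 of the 5 cholangiocyte markers was (2152 to 6000), and the mean cholangiocyte sum with pair-feeding was 0.649 times that of vehicle. Of the 7 macrophage, 5 other leukocyte and 5 endothelial markers, 5, 1 and 1 were lower than with vehicle, 4, 2 and 1 were lower than with pair-fed, and 0 were higher. The part of cell composition in the Cyp2c differences was not tested.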

How the data were processed

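RNA from 18 livers was sequenced with paired reads after strand-specific library preparation. The authors used Trim Galore for trimming and Salmon for quantification, and the deposited table gives estimated counts for each gene symbol as whole numbers, before any scaling. Versions and the transcriptome are not given in the sources used here, and the processing notes name the build mm10. All 18 columns were used, with groups and replicate numbers from the titles. Each sample is the liver of a separate mouse.

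The Wald test of DESeq2 (version 1.42.0 under R 4.3.3) was fitted over all 18 samples with group as the factor, size factors by median of ratios and independent filtering at 0.05. A gene was called at a Benjamini-Hochberg adjusted p under 0.05 and an absolute log2 fold change above 1. DESeq2 and these thresholds are those of the study's methods, and the other settings were chosen here. Fold changes were not shrunken. edgeR (version 4.0.16, quasi-likelihood test) was an alternative, and both were tested on simulated data. Transcript and coding sequences came from GENCODE M21 (GRCm38), with the longest protein-coding transcript of each gene, and alignments from Biopython (version 1.88). Correlations used a pseudocount of 1.

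The 10 genes and all gene lists were chosen with earlier results of these data known. All Cyp2c rows were named. Of each list, genes called in both GDF15 comparisons were named (at most 4, by fold change from vehicle), and where none was called, the 2 with the largest difference from vehicle among those with a mean of at least 50. Exceptions are stated. Fits to replicates 1 to 3 or 4 to 6, sums over near-identical genes and the CAAAGTC search were added after the data were seen. Total counts were 16508864 to 35301853 per sample. The reads carry no molecular identifiers. The counting interval treats estimated counts as reads, and covers at most counting error.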

Additional observations from a re-analysis of the deposited data

Results flagged for a closer look

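Of 60 groups of 6 values (level and share of each of the 10 genes in each group), 7 held a liver whose distance to its nearest neighbour was large for the range of its group, where chance alone gives about 1 in 20, or 3. Level and share of a gene come from the same counts, so the 60 groups are not independent. The 7 and the 3 therefore cannot show an excess. Vehicle replicate 6 had the highest Cyp2c38 (2499 normalized counts, others 1878 to 2054) and the highest Cyp2c39 (135, others 81.5 to 95.4), which are near-identical genes. GDF15 replicate 6 had the highest Cyp2c54, as a level (5518 normalized counts, others 3314 to 4056) and as a share of the 10-gene counts (7.64%, others 5.42% to 5.84%). Pair-fed replicate 5 had the highest Cyp2c69, as a level (53.5 normalized counts, others 0 to 13.96) and as a share (0.151%, others 0% to 0.0426%). In pair-fed replicate 1, Cyp2c50 had the lowest share (15.38%, others 20.9% to 23.7%).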

How the results depend on the processing

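The numbers of genes called (7, 6 and 0) were the same under TMM scaling, without independent filtering, with genes below 10 counts in more than 12 samples removed, with edgeR and in fits of the 12 samples compared. Leaving out each of the 18 libraries in turn gave 7 genes against vehicle and 0 between pair-fed and vehicle in every fit, and 6 to 7 against pair-fed. Cyp2c50 against pair-fed, at 0.99, passed the threshold of 1 in 6 of those 18 fits. With replicates 4 to 6 alone, chosen after the data were seen, 2 genes were called between pair-fed and vehicle (Cyp2c54 at 1.07 and Cyp2c69 at 3.35), and Cyp2c37 against pair-fed fell short at 0.82. With replicates 1 to 3 alone, Cyp2c70 against vehicle fell just short of 1. The cause was not tested. With the replicate block, the counts were 7, 7 and 0, with Cyp2c50 against pair-fed called at 1.08 and Cyp2c54 against vehicle at 3.19. Same-numbered livers of different groups did not deviate together throughout (over 0.1 in 2, 3 and 4 of 6 pairs, mean correlation -0.0336, 0.0281 and 0.205), so the numbers were not taken to pair the livers, although all 6 correlations of pair-fed with vehicle were above 0 (0.0435 to 0.596, against a mean of -0.0412 for other numbers). Few livers were closest to their own number (0, 2 and 1 of 6). Of the single-gene fold changes under alternatives, 768 kept their side of the threshold, 10 passed it newly and 2 fell short, and none that was called changed sign. Counting all 14 Cyp2c rows lowered the share of Cyp2c29 with GDF15 to 33.1%. Computing correlations on shares moved their median to -0.0943. The same 3 and 2 genes had shares apart from vehicle under every denominator. List counts stayed within 1.5 times under edgeR, though it called 2 higher and 1 lower among other P450 genes and among female-biased genes against vehicle. Cyp2c39 and Cyp2c69 rest on few estimated counts, 41 to 122 and 0 to 142 per library.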
